A study of Mus musculus with 6 samples.

Results

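The 45 genes described here encode the glucose and lactate transporters, the enzymes of glycolysis and of the pentose phosphate pathway, the kinases that inhibit pyruvate dehydrogenase, the subunits and prolyl hydroxylases of the hypoxia-inducible factors, and genes that these factors are known to induce. They were chosen by symbol from a list of such genes, and 45 of 45 were among the 16503 genes of the expression table. RNA was sequenced from macrophages of the liver of WT mice fed CDA-HFD, a high-fat diet that lacks choline and supplies amino acids in defined amounts, which induces steatohepatitis (MASH) and, with longer feeding, fibrosis. The cells compared were CD11chiMinclehi macrophages (3 libraries), high for the integrin CD11c and the lectin Mincle on their surface, and CD11cloMinclelo macrophages (3 libraries), low for both. Both groups were sorted from Tim4-negative CD11b+ Ly6Clo F4/80+ cells of mice of the same genotype and diet, and no library of these data came from mice without the diet. By the methods of the study the mice on this diet were male, young adult and fed for several weeks, C57BL/6J is among the strains used, and the labels of these libraries give neither strain nor age. In the study the groups stand for hLAMs (hepatic lipid-associated macrophages) and for moKCs, monocyte-derived cells that take on features of Kupffer cells. The labels call the libraries biological replicates and do not say which mice they came from, so p-values measure the spread between these 6 libraries.

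Glycolysis splits glucose into pyruvate, and the pentose phosphate pathway draws off glucose 6-phosphate to make NADPH and ribose phosphates. Macrophages are known to use both, glycolysis for rapid ATP supply on inflammatory activation and NADPH for lipid synthesis, the respiratory burst and glutathione reduction. In hypoxia the prolyl hydroxylases slow down, HIF proteins are stabilised and the genes of glycolysis and of angiogenesis are induced. HIF-1α is regulated mainly at the protein level, which RNA does not show.

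The libraries held 7.12 to 7.79 M estimated reads (M for mega) in CD11chiMinclehi macrophages and 7.01 to 8.14 M in CD11cloMinclelo macrophages. The 10 macrophage markers examined were all in the table and summed to 5430 to 5550 TPM (transcripts per kilobase of length, scaled to a fixed total per library) in CD11chiMinclehi libraries and to 5301 to 5952 TPM in CD11cloMinclelo libraries. Itgax, which encodes CD11c, was at 315, 340.0 and 325 TPM in CD11chiMinclehi libraries, against 186, 194 and 169 TPM in CD11cloMinclelo libraries, and Clec4e, which encodes Mincle, was at 391, 399 and 305 TPM in CD11chiMinclehi libraries and 349.9, 352 and 246 TPM in CD11cloMinclelo libraries, with overlap. Timd4, which encodes Tim4, was at 0 to 3.19 TPM in CD11chiMinclehi libraries and at 0.814 to 3.77 TPM in CD11cloMinclelo libraries. The 7 markers of Kupffer cells summed to 676 to 998 TPM in CD11chiMinclehi libraries, against 1342 to 2118 TPM in CD11cloMinclelo libraries. In the limma fit given below 0 were called, while Cd5l, Clec4f and Vsig4 came near (adjusted p = 0.0502, 0.0519 and 0.0608). Each of these was lower in all CD11chiMinclehi libraries than in any CD11cloMinclelo library. The 7 include Clec4f and Cd5l, which the study uses as markers of moKCs. Not all followed the sum, as Nr1h3 averaged 369 TPM in CD11chiMinclehi and 347 TPM in CD11cloMinclelo macrophages, and the groups of Marco and Timd4 overlapped. The 20 hepatocyte markers summed to 3075 to 5239 TPM in CD11chiMinclehi libraries and to 3293 to 4476 TPM in CD11cloMinclelo libraries, although the cells were sorted, and the 8 markers of T and NK cells were lowest in the libraries numbered 1, at 18.6 TPM in CD11chiMinclehi and 17.0 TPM in CD11cloMinclelo macrophages, against 147 and 353 TPM in the other CD11chiMinclehi libraries and 193 and 528 TPM in the other CD11cloMinclelo libraries. The part of these RNAs in the results below was not tested.

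Among the 45 genes, 1 fell and 0 rose in CD11chiMinclehi macrophages. Calls were made with limma on log2(TPM + 1) at an adjusted p under 0.05, and differences are CD11chiMinclehi minus CD11cloMinclelo on that scale, with their standard error (SE). The gene that fell was Hk2, which encodes hexokinase 2. Over all 16503 genes 0.770% were called as rising and 0.454% as falling, so that a list of this length with 0 rises and 1 fall lies near the background. At an unadjusted p under 0.05 there were 9 of the 45, against 12.9% of all genes. With the replicate number as a block in the model, which compares libraries of the same number, the call was again Hk2 alone, against 1.67% of all genes called as rising and 1.75% as falling, and 17 of the 45 had an unadjusted p under 0.05, against 16.6% of all genes.

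Small differences above 0 were more frequent than differences below 0. The log2 difference was above 0 for 32 and below 0 for 13 of the 45 genes, with a median of 0.10, against 7939 above and 8564 below and a median of -0.01 over all genes. For 10 of the 45 (Gpi1, Aldoa, Pgam1, Eno1, Pkm, Ldha, Pgd, Tkt, Taldo1 and Ndrg1) all CD11chiMinclehi libraries lay above all CD11cloMinclelo libraries, or 22.2%, against 9.25% of all genes. The reverse held for 1 gene, Hk2, or 2.2%, against 9.22% of all genes. In the 3 comparisons of libraries with the same number, 19 genes were higher in CD11chiMinclehi macrophages in 3 of 3 (42.2%, against 18.0% of all genes) and 6 were lower in 3 of 3 (13.3%, against 19.2%). The shares of all genes were not matched for expression level, which reached down to a mean of 1.00 TPM, against 3.67 TPM among the 45. The part of level in these shares was not tested. In bulk samples fewer cells of a type and less RNA per cell cannot be told apart, and this applies to each difference below.

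**Figure D1:**
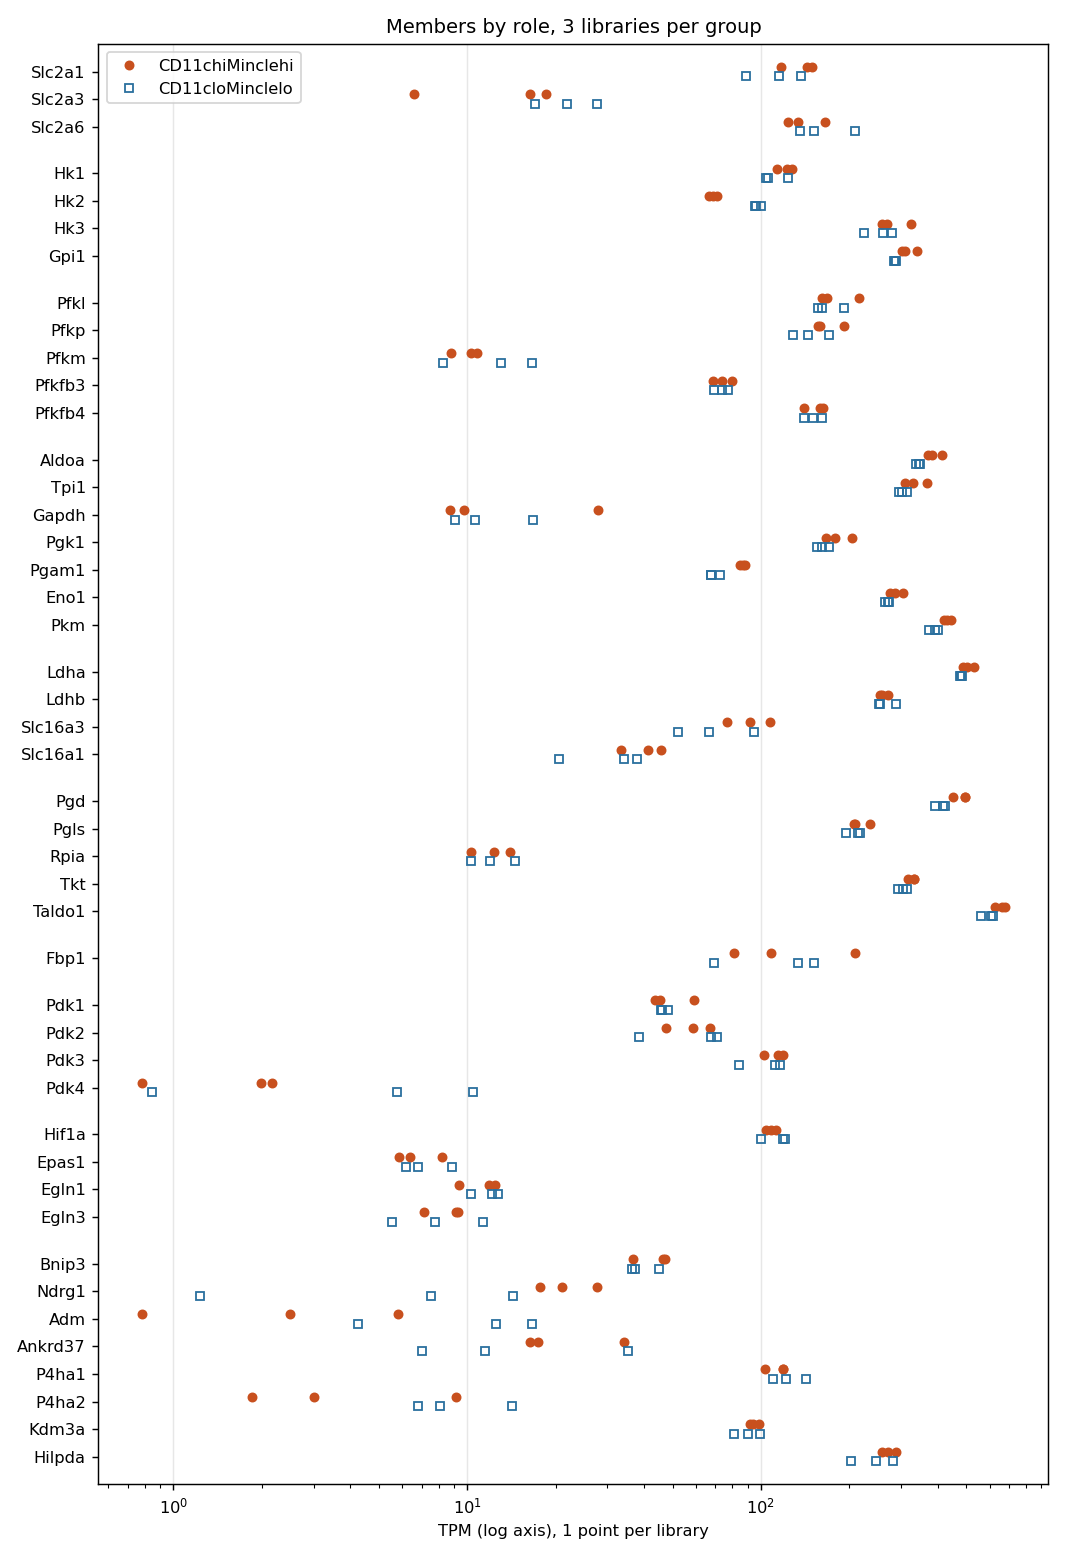
TPM of the 45 genes in each library on a log axis, grouped by role in the order of the text, with CD11chiMinclehi libraries as filled circles and CD11cloMinclelo libraries as open squares. Taldo1, at a mean of 626 TPM, had the highest level and Pdk4, at 3.67 TPM, the lowest, and for Hk2 the circles lie left of the squares without overlap.

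The 5 highest levels were those of Taldo1 and Pgd of the pentose phosphate pathway, Ldha, Pkm and Aldoa. Over the 6 libraries Taldo1 averaged 626 TPM, Ldha 494 TPM, Pgd 445 TPM, Pkm 409 TPM and Aldoa 365 TPM. The lowest were Pdk4 at 3.67 TPM, Epas1 at 7.06 TPM, Adm at 7.08 TPM, P4ha2 at 7.17 TPM and Egln3 at 8.38 TPM. The highest value of any gene in the table was 1382 TPM. The authors had removed PCR duplicates before counting, and the effect of that step on the levels of abundant genes was not tested.

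Glucose enters macrophages through facilitative transporters, and 0 of the 3 transporter genes were called with limma, without or with the block. Without the block 0 of the 3 had an unadjusted p under 0.05. With the block 2 had (Slc2a1 and Slc2a6), against 16.6% of all genes. Slc2a1, which encodes GLUT1, the main glucose transporter of activated macrophages, was at 143, 149 and 117 TPM in CD11chiMinclehi libraries and 116, 137 and 89.0 TPM in CD11cloMinclelo libraries (log2 difference 0.27 ± 0.16, adjusted p = 0.562, and 0.147 with the block). The groups overlapped, while each CD11chiMinclehi library was above the CD11cloMinclelo library of its number. Slc2a3, which encodes the high-affinity transporter GLUT3, was at 6.58, 18.5 and 16.4 TPM in CD11chiMinclehi libraries and 21.9, 27.7 and 17.0 TPM in CD11cloMinclelo libraries (-0.74 ± 0.38, adjusted p = 0.485), and Slc2a6, which encodes the lysosomal transporter GLUT6, averaged 141 ± 21.6 TPM in CD11chiMinclehi and 165 ± 38.2 TPM in CD11cloMinclelo macrophages (SD, n = 3 each, as for each mean below, -0.21 ± 0.17, adjusted p = 0.70). Both were lower in CD11chiMinclehi macrophages in 3 of 3 pairs of the same number, with overlap between the groups. Slc2a1 made up 46.9% ± 3.13 of the summed TPM of the 3 transporters in CD11chiMinclehi macrophages and 37.9% ± 1.85 in CD11cloMinclelo macrophages (SD, n = 3 each), and Slc2a6 made up 48.4% ± 1.23 in CD11chiMinclehi macrophages and 54.8% ± 2.06 in CD11cloMinclelo macrophages.

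Hexokinases trap glucose in the cell by phosphorylation, and Hk2 fell while the other isozyme genes did not pass the test. Hk2 (chr6:82725025-82774454 on GRCm38, minus strand), which encodes the inducible hexokinase bound to mitochondria, was at 68.5, 71.0 and 66.6 TPM in CD11chiMinclehi libraries, against 95.1, 99.7 and 96.1 TPM in CD11cloMinclelo libraries. All 3 CD11chiMinclehi libraries lay below all 3 CD11cloMinclelo libraries, and the spread within each group was at most 2.42 TPM (SD). The log2 difference was -0.49 ± 0.08 (adjusted p = 0.0337, and 0.0279 with the block), or 0.708 times the mean of CD11cloMinclelo macrophages. Hk1, the ubiquitous isozyme, averaged 121 ± 7.22 TPM in CD11chiMinclehi and 111 ± 10.7 TPM in CD11cloMinclelo macrophages (0.12 ± 0.09, adjusted p = 0.667), and Hk3, the isozyme of myeloid cells, 284 ± 35.3 TPM in CD11chiMinclehi and 255 ± 28.2 TPM in CD11cloMinclelo macrophages (0.15 ± 0.11, adjusted p = 0.639, higher in 3 of 3 pairs). Hk3 carried most hexokinase RNA, at 59.8% ± 3.56 of the summed TPM of the 3 genes in CD11chiMinclehi macrophages and 55.0% ± 1.75 in CD11cloMinclelo macrophages. The share of Hk2 was 15.1%, 14.0% and 14.5% in CD11chiMinclehi libraries, against 22.5%, 19.8% and 20.8% in CD11cloMinclelo libraries. Gpi1, whose product converts glucose 6-phosphate to fructose 6-phosphate, was higher in all CD11chiMinclehi libraries than in any CD11cloMinclelo library at 317 ± 19.8 TPM in CD11chiMinclehi and 286 ± 2.64 TPM in CD11cloMinclelo macrophages (0.15 ± 0.05, adjusted p = 0.306).

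The call of Hk2 did not hold when any 1 library was left out (adjusted p = 0.102 to 0.149 with limma), with both libraries of a number left out (0.269 to 0.358), with median centring (0.0862) or without the variance trend (0.161), while with libraries left out the log2 difference stayed between -0.52 and -0.47. The summed markers of Kupffer cells were also lower in CD11chiMinclehi libraries without overlap, at 676, 694 and 998 TPM against 1342, 1567 and 2118 TPM in CD11cloMinclelo libraries. Some of these genes mark moKCs in the study, and both groups were sorted as Tim4-negative. The part of these markers in the difference of Hk2 was not tested.

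**Figure D2:**
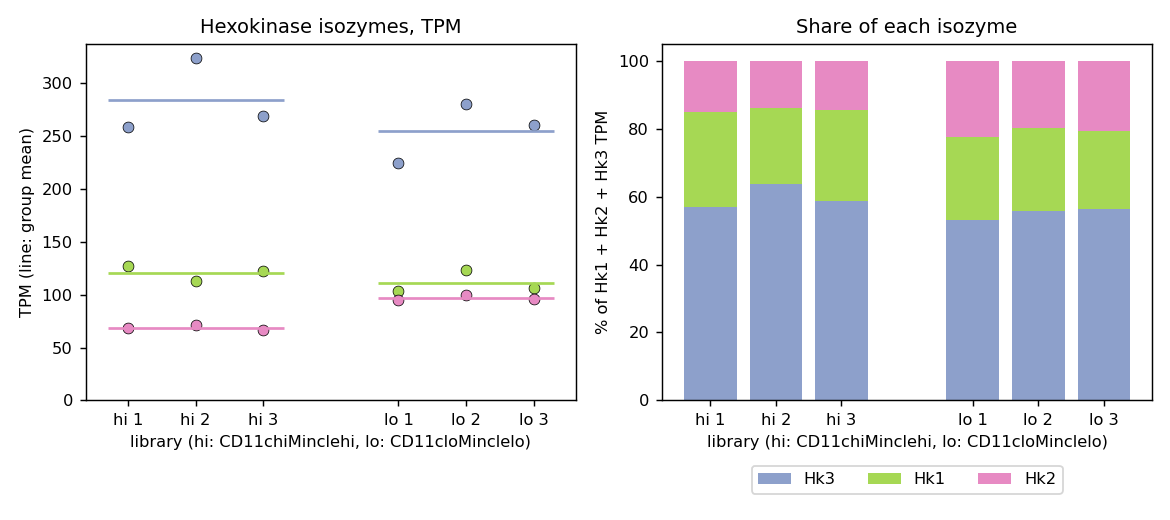
TPM of Hk1, Hk2 and Hk3 in each library with the group mean as a line (left), and the share of each in their summed TPM (right), for CD11chiMinclehi libraries 1 to 3 (hi) and CD11cloMinclelo libraries 1 to 3 (lo). Hk2 took 14.0% to 15.1% in CD11chiMinclehi libraries and 19.8% to 22.5% in CD11cloMinclelo libraries, and Hk3 the largest share in each library.

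The promoter of Hk2 is shown with those of Adm and Pgam1, which had the largest difference below 0 of the 45 genes and the largest difference in lower glycolysis, because HIF factors are known to bind a short core, ACGTG or GCGTG. RefSeq windows on GRCm38.p6, 250 bases before to 50 bases after a start, were found for 42 of the 45 genes (59 windows). The core was searched on both strands, and ACGTG is also contained in the E-box CACGTG. Of the 59 windows 79.7% held ACGTG or GCGTG, against 43.8% of all 32851 windows of the same length, and 45.8% held ACGTG, against 19.6%. CACGTG was in 11.9%, against 7.2% of all windows. The bases before the start are printed 5′ to 3′ on the strand of the gene, with matches in capitals, where CACGT and CACGC are the cores of the other strand. They lie at chr6:82774455-82774704 (minus strand) for Hk2, chr7:110627407-110627656 (plus strand) for Adm and chr19:41911621-41911870 (plus strand) for Pgam1.
Hk2: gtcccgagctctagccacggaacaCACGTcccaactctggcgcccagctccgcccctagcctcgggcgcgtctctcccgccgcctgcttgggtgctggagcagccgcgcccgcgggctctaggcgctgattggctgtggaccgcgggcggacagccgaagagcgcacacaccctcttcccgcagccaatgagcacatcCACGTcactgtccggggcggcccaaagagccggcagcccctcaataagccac
Adm: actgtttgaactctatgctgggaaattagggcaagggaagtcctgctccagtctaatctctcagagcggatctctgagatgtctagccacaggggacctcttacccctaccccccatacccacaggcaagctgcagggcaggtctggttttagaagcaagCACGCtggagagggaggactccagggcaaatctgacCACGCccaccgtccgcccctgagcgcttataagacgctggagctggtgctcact
Pgam1: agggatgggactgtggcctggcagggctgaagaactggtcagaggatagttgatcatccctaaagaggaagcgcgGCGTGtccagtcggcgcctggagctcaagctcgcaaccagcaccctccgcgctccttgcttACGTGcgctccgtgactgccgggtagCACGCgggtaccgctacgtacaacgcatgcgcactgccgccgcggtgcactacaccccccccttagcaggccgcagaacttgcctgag
The 2 matches of Hk2 were both of ACGTG and began 226 and 52 bases before the start. Adm had 2 matches of GCGTG, 90 and 54 bases before the start, and 0 of ACGTG, and Pgam1 had 3, of which 1 was of ACGTG at 114 bases. The 45 genes were chosen to include genes known to be induced by HIF, so their higher shares are no independent evidence. The windows were not matched for base content, and some genes had several. These letters describe the windows, and binding was not measured.

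Phosphofructokinase commits glucose to glycolysis, and the 3 isozyme genes and both PFKFB genes showed differences between -0.27 and 0.19, with 0 of 5 called. At an unadjusted p under 0.05 there were 0 of 5 without the block and 1 of 5 with it (Pfkp), against 12.9% and 16.6% of all genes. Pfkl, the liver-type isozyme, averaged 181 ± 29.5 TPM in CD11chiMinclehi and 169.7 ± 19.4 TPM in CD11cloMinclelo macrophages and Pfkp, the platelet-type isozyme, 169 ± 20.1 TPM in CD11chiMinclehi and 148 ± 20.9 TPM in CD11cloMinclelo macrophages, each higher in CD11chiMinclehi macrophages in 3 of 3 pairs with overlap between groups (adjusted p = 0.846 and 0.577). These isozymes made up nearly all phosphofructokinase RNA, Pfkl with 50.2% ± 1.14 of the summed TPM in CD11chiMinclehi macrophages and 51.5% ± 0.874 in CD11cloMinclelo macrophages, and Pfkp with 47.0% ± 0.907 in CD11chiMinclehi macrophages and 44.7% ± 1.44 in CD11cloMinclelo macrophages. Pfkm, the muscle-type isozyme, was at 8.26 to 16.6 TPM over the 6 libraries. Pfkfb3, which makes the activator fructose 2,6-bisphosphate, was at 73.5, 79.6 and 68.6 TPM in CD11chiMinclehi libraries and 69.4, 73.4 and 77.3 TPM in CD11cloMinclelo libraries (0.01 ± 0.10, adjusted p = 0.991). Its groups lay over each other, as did those of Pfkfb4, a related kinase and phosphatase, at 154 ± 11.8 TPM in CD11chiMinclehi and 150.4 ± 11 TPM in CD11cloMinclelo macrophages.

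The lower glycolytic genes, from aldolase to pyruvate kinase, were all above 0 in their log2 difference, and 0 of 7 were called. At an unadjusted p under 0.05 there were 3 of 7 without the block and 5 of 7 with it, against 12.9% and 16.6% of all genes. The median difference of the 7 genes was 0.17 and the range 0.10 to 0.32. Their summed level was 1703, 1843 and 1637 TPM in CD11chiMinclehi libraries, against 1553, 1542 and 1548 TPM in CD11cloMinclelo libraries. The sums of the groups did not overlap, and 6 of the 7 genes were higher in 3 of 3 pairs, against 18.0% of all genes. Pgam1, the phosphoglycerate mutase, had the largest difference with 88.1, 85.1 and 87.0 TPM in CD11chiMinclehi libraries, against 67.5, 67.6 and 72.7 TPM in CD11cloMinclelo libraries (0.32 ± 0.08, adjusted p = 0.133, and 0.118 with the block). Pkm, which encodes pyruvate kinase, was at 430.0, 443 and 418 TPM in CD11chiMinclehi libraries, against 401, 373 and 392 TPM in CD11cloMinclelo libraries (0.15 ± 0.04, adjusted p = 0.213). Both were without overlap between the groups, as were Aldoa, which encodes aldolase A (388 ± 22.3 TPM in CD11chiMinclehi and 343 ± 5.67 TPM in CD11cloMinclelo macrophages, adjusted p = 0.197), and Eno1, which encodes enolase (289 ± 14.6 TPM in CD11chiMinclehi and 269 ± 3.68 TPM in CD11cloMinclelo macrophages, adjusted p = 0.490). Tpi1, the triose phosphate isomerase, averaged 336 ± 28.5 TPM in CD11chiMinclehi and 303 ± 9.53 TPM in CD11cloMinclelo macrophages (adjusted p = 0.423) and Pgk1, the phosphoglycerate kinase, 183 ± 18.8 TPM in CD11chiMinclehi and 163 ± 7.38 TPM in CD11cloMinclelo macrophages (adjusted p = 0.467), and their groups overlapped.

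Gapdh, which encodes glyceraldehyde 3-phosphate dehydrogenase and is often used as an abundant reference gene, was listed at only 8.71, 27.8 and 9.75 TPM in CD11chiMinclehi libraries and 10.7, 16.8 and 9.11 TPM in CD11cloMinclelo libraries (0.17 ± 0.45, adjusted p = 0.933). Its level was a small part of those of its neighbours in the pathway, Tpi1 at 294 to 367 TPM and Pgk1 at 155 to 204 TPM over the 6 libraries. Of the 75-base words of its longest coding transcript, 80.3% also occurred in transcripts of 121 other loci. Of these loci 35 were in the table, most of them unnamed gene models, and summed to 66.6, 84.7 and 77.9 TPM in CD11chiMinclehi libraries, against 52.6, 51.6 and 52.4 TPM in CD11cloMinclelo libraries. The same share was 67.5% for Pgk1, 65.4% for Eno1, 40.6% for Pgam1, 31.0% for Bnip3, 16.8% for Ldhb, 15.6% for Pkm and 9.96% for Gpi1, and at most 5.23% for the other genes. By the methods of the study the reads of these libraries were paired and longer than 75 bases, and for such reads these shares can be lower. The levels of these genes are uncertain where reads could be split or dropped between copies, and the part of this in their values was not tested. With libraries left out, the log2 difference of Gapdh ranged from -0.32 to 0.46.

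**Figure D3:**
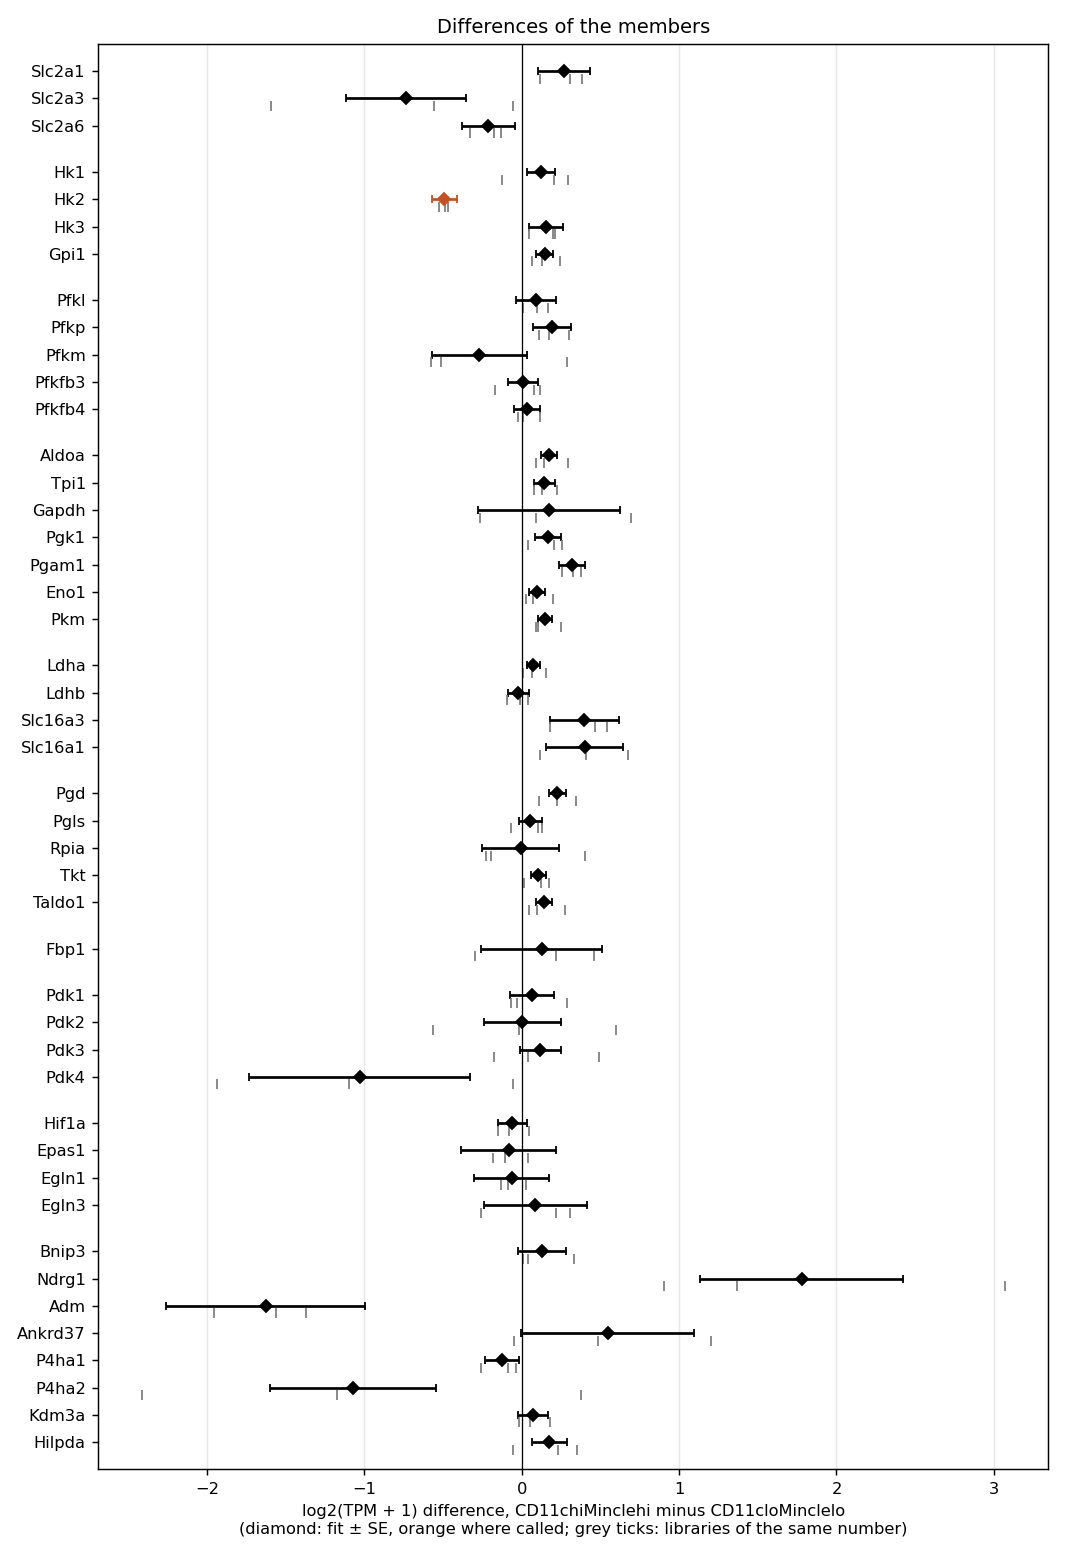
Log2 difference of each gene, CD11chiMinclehi minus CD11cloMinclelo, with its SE (diamonds, orange where called), and the difference between libraries of the same number (grey ticks). Hk2 at -0.49 is the one called gene, the 7 lower glycolytic genes lie between 0.10 and 0.32, and Ndrg1 at 1.78 and Adm at -1.63 have the widest differences with wide errors.

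Pyruvate becomes lactate by lactate dehydrogenase and leaves through monocarboxylate transporters, and 0 of these 4 genes were called, without or with the block. At an unadjusted p under 0.05 there were 0 of 4 without the block, against 12.9% of all genes. With the block there were 2 (Slc16a3 and Slc16a1), against 16.6%. Ldha, the subunit that favours lactate production, was at 503, 529.6 and 488 TPM in CD11chiMinclehi libraries, against 480.2, 477 and 485 TPM in CD11cloMinclelo libraries (0.08 ± 0.04, adjusted p = 0.512). The CD11chiMinclehi libraries lay above the CD11cloMinclelo libraries by a small margin. Ldhb, the other subunit, averaged 261 ± 8.42 TPM in CD11chiMinclehi and 265 ± 20.2 TPM in CD11cloMinclelo macrophages (-0.02 ± 0.06), and Ldha made up 66.0% ± 1.1 of the LDH total in CD11chiMinclehi macrophages and 64.5% ± 1.73 in CD11cloMinclelo macrophages. Slc16a3, which encodes the lactate exporter MCT4, was at 92.1, 108 and 76.5 TPM in CD11chiMinclehi libraries and 66.3, 94.7 and 52.2 TPM in CD11cloMinclelo libraries (0.40 ± 0.22, adjusted p = 0.511, and 0.104 with the block). It was higher in 3 of 3 pairs with overlap between the groups, and so was Slc16a1, which encodes MCT1, at 40.1 ± 6.21 TPM in CD11chiMinclehi and 30.9 ± 9.18 TPM in CD11cloMinclelo macrophages (0.40 ± 0.24, adjusted p = 0.566).

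Of the 5 pentose phosphate genes 0 were called and 2 had an unadjusted p under 0.05, both without and with the block. Of the 5, 3 were higher in all CD11chiMinclehi libraries than in any CD11cloMinclelo library, against 9.25% of all genes. Pgd (chr4:149149991-149166771), which encodes 6-phosphogluconate dehydrogenase, one of the NADPH-producing enzymes, was at 494, 497 and 449.7 TPM in CD11chiMinclehi libraries, against 423, 390.5 and 416 TPM in CD11cloMinclelo libraries (0.23 ± 0.05, adjusted p = 0.110, and 0.0701 with the block). With quantile normalization it was called at adjusted p = 0.0330. Tkt, which encodes transketolase of the non-oxidative branch, was at 331, 331 and 317 TPM in CD11chiMinclehi libraries, against 304, 293 and 314 TPM in CD11cloMinclelo libraries (0.11 ± 0.05, adjusted p = 0.395), and Taldo1, which encodes transaldolase, averaged 657 ± 25.8 TPM in CD11chiMinclehi and 596 ± 30.4 TPM in CD11cloMinclelo macrophages (0.14 ± 0.05, adjusted p = 0.270). Pgls, the lactonase, averaged 217 ± 15.0 TPM in CD11chiMinclehi and 209 ± 11.8 TPM in CD11cloMinclelo macrophages and Rpia, the ribose phosphate isomerase, 12.2 ± 1.81 TPM in CD11chiMinclehi and 12.3 ± 2.14 TPM in CD11cloMinclelo macrophages, and the groups of both overlapped. G6pdx, which encodes the rate-limiting dehydrogenase of the pathway, belongs to the wider list below and was at 349, 353 and 324 TPM in CD11chiMinclehi libraries, against 301, 286 and 290.0 TPM in CD11cloMinclelo libraries (0.22 ± 0.05, adjusted p = 0.0965, and 0.0576 with the block). G6pdx too was called with quantile normalization (adjusted p = 0.0438). Pgd and G6pdx stood in nearly the same ratio in each library, 1.39 to 1.42 in CD11chiMinclehi macrophages and 1.37 to 1.43 in CD11cloMinclelo macrophages.

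Fbp1, which encodes fructose 1,6-bisphosphatase of gluconeogenesis, a hepatocyte function, was at 80.7, 209 and 108 TPM in CD11chiMinclehi libraries and 69.4, 152 and 133 TPM in CD11cloMinclelo libraries (0.13 ± 0.39, adjusted p = 0.946). The groups overlapped and the highest value was that of CD11chiMinclehi replicate 2. That library also had the highest summed level of the 20 hepatocyte markers, which was 3075, 5239 and 3402 TPM in CD11chiMinclehi libraries and 3293, 4218 and 4476 TPM in CD11cloMinclelo libraries. Pck1, a further gene of gluconeogenesis in hepatocytes, was highest in it too, at 185 TPM, against at most 106 TPM in the other 5 libraries. The part of hepatocyte RNA in the level of Fbp1 was not tested.

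**Figure D4:**
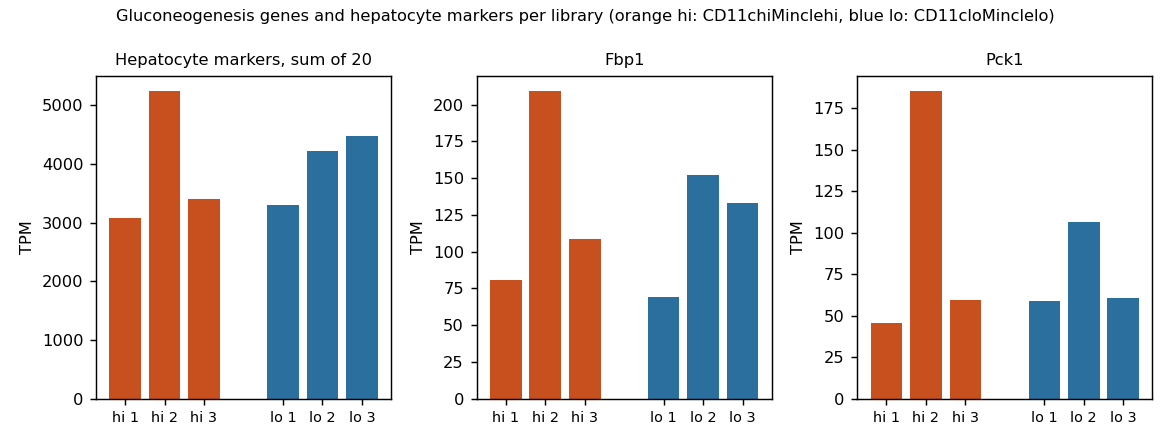
Summed TPM of 20 hepatocyte markers and TPM of Fbp1 and Pck1 in CD11chiMinclehi libraries 1 to 3 (hi, orange) and CD11cloMinclelo libraries 1 to 3 (lo, blue), with bars starting at 0. In each panel CD11chiMinclehi replicate 2 is the highest library, at 5239 TPM for the markers, 209 TPM for Fbp1 and 185 TPM for Pck1.

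The pyruvate dehydrogenase kinases, which hold pyruvate out of the mitochondrial citrate cycle, were not called, and 0 of 4 had an unadjusted p under 0.05. Pdk3 was the most abundant, with 50.7% ± 2.63 of their summed TPM in CD11chiMinclehi macrophages and 48.4% ± 8.19 in CD11cloMinclelo macrophages. It averaged 112 ± 8.50 TPM in CD11chiMinclehi and 104 ± 17.2 TPM in CD11cloMinclelo macrophages, Pdk2 57.7 ± 9.74 TPM in CD11chiMinclehi and 59.0 ± 18.0 TPM in CD11cloMinclelo macrophages and Pdk1, a HIF-1 target, 49.3 ± 8.56 TPM in CD11chiMinclehi and 46.7 ± 1.33 TPM in CD11cloMinclelo macrophages, with adjusted p of 0.799 or more. Pdk4, the kinase induced by fasting and fatty acids, was at 0.779, 1.99 and 2.17 TPM in CD11chiMinclehi libraries and 0.846, 10.4 and 5.78 TPM in CD11cloMinclelo libraries (-1.03 ± 0.70, adjusted p = 0.627). These values stand for 5.02 to 14.1 estimated reads in CD11chiMinclehi libraries and 5.02 to 71.6 in CD11cloMinclelo libraries. Pdk4 was lower in CD11chiMinclehi macrophages in 3 of 3 pairs and the groups overlapped.

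The genes of the oxygen sensor had overlapping groups. Hif1a, which encodes HIF-1α, was at 112, 108 and 104 TPM in CD11chiMinclehi libraries and 119, 120.3 and 100.3 TPM in CD11cloMinclelo libraries (-0.06 ± 0.09, adjusted p = 0.865). Epas1, which encodes HIF-2α, averaged 6.83 ± 1.24 TPM in CD11chiMinclehi and 7.30 ± 1.43 TPM in CD11cloMinclelo macrophages (-0.08 ± 0.30), Egln1, which encodes the prolyl hydroxylase PHD2, 11.2 ± 1.65 TPM in CD11chiMinclehi and 11.7 ± 1.24 TPM in CD11cloMinclelo macrophages (-0.06 ± 0.24), and Egln3, which encodes PHD3 and is itself HIF-inducible, 8.53 ± 1.24 TPM in CD11chiMinclehi and 8.22 ± 2.93 TPM in CD11cloMinclelo macrophages (0.09 ± 0.33). Among these genes 0 of 4 were called or had an unadjusted p under 0.05, and their median log2 difference was -0.06. The 3 low genes had an SE of 0.24 to 0.33. The SE is no limit of detection, and differences well above it can also go uncalled with these libraries, as for Ndrg1 below (1.78 ± 0.64).

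The 8 hypoxia-inducible genes had differences of both signs, and 0 were called, with 2 at an unadjusted p under 0.05. Ndrg1 (chr15:66929318-66969640), a stress-response gene induced by hypoxia, was at 21.0, 27.8 and 17.8 TPM in CD11chiMinclehi libraries, against 7.55, 14.4 and 1.23 TPM in CD11cloMinclelo libraries (1.78 ± 0.64, adjusted p = 0.294, and 0.0877 with the block). All CD11chiMinclehi libraries were above all CD11cloMinclelo libraries, which themselves ranged from 1.23 to 14.4 TPM, the lowest standing for 13.7 estimated reads. Adm (chr7:110627661-110629820), which encodes the vasodilator peptide adrenomedullin, was at 0.781, 2.49 and 5.83 TPM in CD11chiMinclehi libraries and 4.24, 12.5 and 16.6 TPM in CD11cloMinclelo libraries (-1.63 ± 0.63, adjusted p = 0.327, and 0.0609 with the block). It was lower in CD11chiMinclehi macrophages in 3 of 3 pairs with overlap between the groups, and its values stand for 2.32 to 17.4 estimated reads in CD11chiMinclehi libraries and 11.6 to 45.4 in CD11cloMinclelo libraries. These estimates lay up to 0.437 from whole numbers. They use an exon length of 1619 bases, against 1390 in the longest coding transcript of Adm, and would be lower with a shorter length. Ndrg1 and Adm, both induced by HIF, thus had differences of opposite sign, and neither passed the test.

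The other hypoxia-inducible genes differed less or with a wide spread. P4ha2, which encodes a subunit of collagen prolyl 4-hydroxylase, was at 3.02, 9.12 and 1.85 TPM in CD11chiMinclehi libraries and 8.07, 6.79 and 14.2 TPM in CD11cloMinclelo libraries (-1.07 ± 0.53, adjusted p = 0.462), while P4ha1, the more abundant paralog, averaged 114 ± 8.73 TPM in CD11chiMinclehi and 125 ± 16.3 TPM in CD11cloMinclelo macrophages (-0.13 ± 0.11) and was lower in 3 of 3 pairs. Ankrd37, which encodes an ankyrin repeat protein, was at 16.4, 34.2 and 17.5 TPM in CD11chiMinclehi libraries and 11.5, 35.4 and 7.03 TPM in CD11cloMinclelo libraries (0.55 ± 0.55, adjusted p = 0.768). The groups of these 3 genes overlapped. Bnip3, which encodes a mitophagy receptor, was at 47.1, 46.3 and 36.7 TPM in CD11chiMinclehi libraries and 37.2, 45 and 36.4 TPM in CD11cloMinclelo libraries (0.13 ± 0.15, adjusted p = 0.813). Hilpda, which encodes a lipid droplet protein that inhibits the lipase ATGL, was at 288, 259 and 269.8 TPM in CD11chiMinclehi libraries and 245, 203 and 281 TPM in CD11cloMinclelo libraries (0.17 ± 0.11, adjusted p = 0.592). Hilpda was the most abundant of the 8, and its highest CD11cloMinclelo library lay above 2 of the 3 CD11chiMinclehi libraries. Kdm3a, which encodes a histone demethylase, averaged 94.6 ± 3.13 TPM in CD11chiMinclehi and 90.2 ± 9.09 TPM in CD11cloMinclelo macrophages (0.07 ± 0.09).

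Beyond the 45 genes, a wider list of 105 further genes of glucose, pentose phosphate and hypoxia metabolism was examined, of which 86 were in the table. With limma 3 rose (Vegfa, Angptl4 and Gbe1), 1 fell (Tgfb3) and 82 did not pass, against the background of 0.770% and 0.454% given above, and 18 had an unadjusted p under 0.05, against 12.9% of all genes. With the block 4 rose and 2 fell, against 1.67% and 1.75% of all genes, the additional genes being Aldoc and Plod1. With the block 21 had an unadjusted p under 0.05, against 16.6% of all genes. Without the block, of the 38 hypoxia genes 2 rose and 1 fell, of the 41 glucose and lactate genes 1 rose and 0 fell, and of the 7 pentose phosphate genes 0 were called. The median log2 difference of the 86 was 0.06.

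Vegfa (chr17:46016993-46032369), which encodes the angiogenic factor VEGF-A, was at 215, 195 and 182 TPM in CD11chiMinclehi libraries, against 105, 115 and 95.0 TPM in CD11cloMinclelo libraries (0.90 ± 0.09, adjusted p = 0.0115). Each CD11chiMinclehi library was well above each CD11cloMinclelo library. Angptl4, a lipoprotein lipase inhibitor induced by both PPARs and hypoxia, was at 88.8, 84.4 and 78.7 TPM in CD11chiMinclehi libraries, against 46.0, 52.4 and 51.0 TPM in CD11cloMinclelo libraries (0.74 ± 0.10, adjusted p = 0.0242). Gbe1, which encodes the glycogen branching enzyme, was at 70.5, 70.6 and 69.3 TPM in CD11chiMinclehi libraries, against 49.3, 46.4 and 43.4 TPM in CD11cloMinclelo libraries (0.59 ± 0.10, adjusted p = 0.0381). Aldoc, which encodes aldolase C, was at 52.7, 71.1 and 61.9 TPM in CD11chiMinclehi libraries, against 11.7, 40.0 and 18.3 TPM in CD11cloMinclelo libraries (1.53 ± 0.38, adjusted p = 0.129), and it passed as higher with the block alone (adjusted p = 0.0223).

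Tgfb3, which encodes a TGF-β ligand, was at 10.9, 6.99 and 13.4 TPM in CD11chiMinclehi libraries, against 29.5, 26.2 and 36.1 TPM in CD11cloMinclelo libraries (-1.50 ± 0.27, adjusted p = 0.0475). Plod1, which encodes a collagen lysyl hydroxylase, was at 148, 135 and 177 TPM in CD11chiMinclehi libraries, against 178, 202 and 263 TPM in CD11cloMinclelo libraries (-0.47 ± 0.15, adjusted p = 0.237), and passed as lower with the block alone (adjusted p = 0.0259). The groups of both genes did not overlap. The 8 markers of stellate cells and fibroblasts in the table, cells known to make matrix, summed to 126, 138 and 160 TPM in CD11chiMinclehi libraries, against 173, 250 and 215 TPM in CD11cloMinclelo libraries. Of the 8, 1 was called as falling (Dcn), while Acta2 and Pdgfrb had log2 differences above 0 (0.64 each, not called). The part of these markers in the differences of Tgfb3 and Plod1 was not tested. With 1 library left out, the adjusted p ranged from 0.0473 to 0.106 for Vegfa, 0.0688 to 0.144 for Angptl4, 0.104 to 0.176 for Gbe1 and 0.0851 to 0.225 for Tgfb3. Without the variance trend 0 of the 86 were called, with median centring 2 rose and 0 fell, and with a pseudocount of 0.1 TPM 3 rose and 0 fell.

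**Figure D5:**
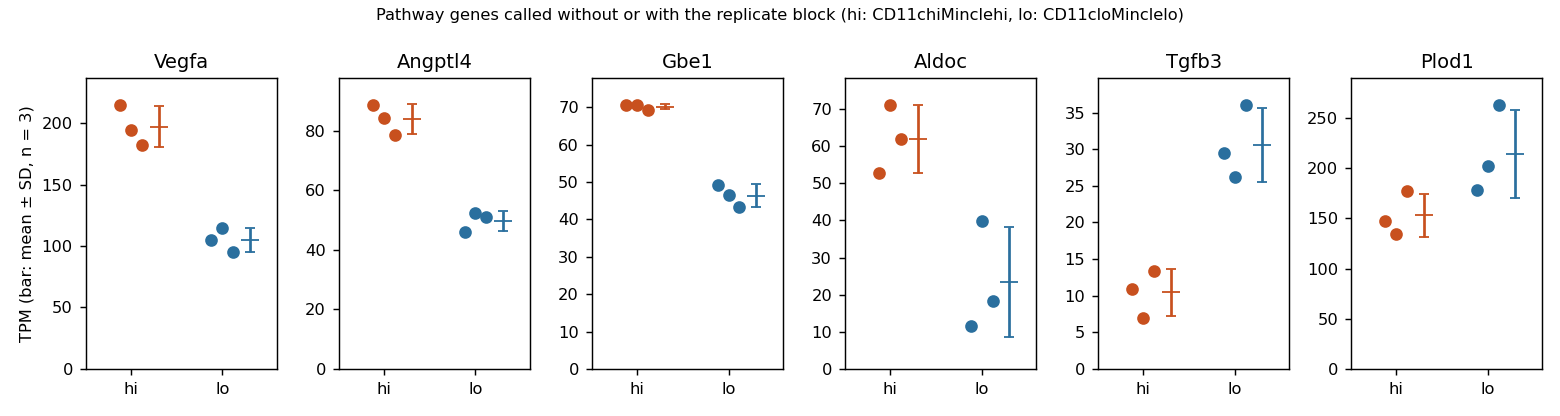
TPM of the 6 further pathway genes called without or with the replicate block, 1 point per library for CD11chiMinclehi (hi, left) and CD11cloMinclelo (lo, right) macrophages, with mean ± SD (n = 3) beside the points and axes starting at 0. The groups do not overlap in any panel, with CD11chiMinclehi libraries above for Vegfa, Angptl4, Gbe1 and Aldoc and below for Tgfb3 and Plod1.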

How the data were processed

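RNA-seq of 6 libraries was analysed, 3 of CD11chiMinclehi and 3 of CD11cloMinclelo macrophages, grouped by their titles. Polyadenylated RNA was made into strand-specific libraries. The authors trimmed reads (Trimmomatic 0.39.0), aligned them to GRCm38 (HISAT2 2.2.1), removed PCR duplicates and counted reads per gene (featureCounts 2.0.1), and deposited TPM. Which annotation release and strand setting they used is not given in the sources used here. TPM keeps no depth, so reads were estimated from the step between low values, with exon lengths of GENCODE mouse release M21 on GRCm38. In each library 77.9% to 84.8% of low values were whole multiples of its step to within 0.05, and 16104 genes (97.6%) had a unique symbol there. Whether a step is a read or a pair of reads is unknown.

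Linear models of log2(TPM + 1) were fitted by limma 3.58.1 (R 4.3.3, empirical Bayes with a trend, two-sided) on all 16503 genes, with Benjamini-Hochberg adjustment over all of them. The pseudocount understates changes of low genes. The fit was tested on simulated data. Deviations of libraries of the same number correlated at 0.36, 0.20 and 0.12 over genes, and each library correlated best with its own number, so libraries of 1 number were treated as pairs, although the study states no pairing for this RNA-seq. For other measurements of these sorted fractions the study used paired tests. Values with this number as a block stand beside results they bear on.

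The 45 genes and all lists were chosen with earlier results of these data known. Values per library are given for genes called in either model, for the 6 largest differences with a group mean of at least 5 TPM and for a fixed selection, plus Pgam1, whose values per library were added after they were seen. Of the wider list, called genes and G6pdx are named, and Pck1 was named after its values were seen. Alternatives were pseudocounts of 0.1 and 0.5 TPM, a minimum mean of 5 TPM, median centring, quantile normalization, no trend, the block, and leaving out libraries.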

Additional observations from a re-analysis of the deposited data

How the results depend on the processing

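Each of the 5 called genes named (Hk2, Vegfa, Angptl4, Gbe1 and Tgfb3) lost its call without the trend and with some library left out, and counts of calls moved. With quantile normalization 201 genes rose and 136 fell, and 1 of the 45 rose (Pgd). With median centring 41 genes fell, 0 of the 45 and 0 of the wider list among them, and the median of the 45 was 0.14. Without the trend 8 genes rose and 11 fell, with 0 of the 45 falling and 0 of the wider list called in either direction. A pseudocount of 0.1 TPM left 0 falling genes in the wider list. With the replicate block for the pairing, 275 genes rose, 289 fell, and 2 of the wider list fell. Apart from Aldoc and Plod1, the block changed no call of the 45 genes or of the wider list. Leaving out 1 library gave 0 to 21 rising and 0 to 25 falling genes, with the highest counts without CD11chiMinclehi replicate 3, and 0 of the 45 were called. In the wider list 0 to 1 rose and 0 fell, and the median of the 45 ran from 0.07 to 0.13. Leaving out both libraries of a number, chosen after seeing the data, gave 0 calls. Each of these fits has fewer samples. Median centring shifted the log2 differences of all genes upward by the same amount, and those of Ldhb (0.022) and Rpia (0.0356), near 0, changed sign with it. With quantile normalization Rpia (0.059), Pdk2 (-0.00397), Epas1 (0.031) and Egln1 (0.023) changed sign, and the cause was not tested. Left-out libraries gave both signs for Pfkfb4 (-0.017 to 0.099), Pgls (-0.00045 to 0.12), Pdk2 (-0.29 to 0.29), Egln1 (-0.14 to 0.053), Pfkl (-0.039 to 0.18), Pfkfb3 (-0.046 to 0.098), Gapdh (-0.32 to 0.46), Fbp1 (-0.26 to 0.42), Epas1 (-0.21 to 0.052), Rpia (-0.21 to 0.11), Pdk1 (-0.070 to 0.15), Ldhb (-0.057 to 0.041), Pdk3 (-0.070 to 0.27), Egln3 (-0.13 to 0.32) and Kdm3a (-0.0024 to 0.14).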
